A study of Mus musculus with 12 samples.

Results

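The 36 genes described here form the response controlled by the transcription factor ATF4 together with the cytosolic aminoacyl-tRNA synthetases. They comprise 20 synthetase genes, 3 scaffold genes of the multi-synthetase complex (Aimp1, Aimp2 and Eef1e1), Atf4 with 3 partners or relatives of the same bZIP class (Atf5, Cebpb and Cebpg), 6 enzymes of amino acid synthesis (Asns, Psat1, Phgdh, Psph, Aldh18a1 and Pycr1) and 3 stress outputs (Chac1, Trib3 and Sesn2). Members were taken by their mouse Entrez gene from a count table of 27179 genes, not by their values. The list itself was chosen with earlier results of these data known. All 36 were found and all 36 passed the filter on low counts, and no stage had 3 counts or fewer of a member in both of its libraries.

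The RNA-Seq followed B cells from the spleens of male C57BL/6 Pep3b mice, 6 to 12 weeks old, through 6 stages with 2 biological replicates each. Naive cells were sorted as TCRβ- B220+ IgM+ with high IgD and received no stimulus. B cells of the other stages were isolated by negative selection and cultured with lipopolysaccharide (LPS, 25 µg/ml, from Salmonella typhosa), a bacterial ligand that drives B cells to divide and to differentiate without T cells. Cells for 3, 10 and 33 h had been labelled with CellTrace Violet, a dye that is diluted at each division, and were sorted as undivided (TCRβ- CD69+ with the highest dye signal), whereas the populations of day 4 came from cultures seeded at a lower density and were sorted by CD22 and CD138, expanded B cells carrying only the first and plasmablasts only the second. The way of isolation thus differs between naive and cultured cells, and the density between 33 h and day 4, and neither can be told apart from the stages. The sources used here do not say which libraries share a mouse.

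ATF4 is a basic leucine zipper protein of the integrated stress response. Kinases that sense amino acid shortage, unfolded protein in the endoplasmic reticulum, heme loss or double-stranded RNA phosphorylate the initiation factor eIF2, which slows translation in general but favours translation of the Atf4 message, and growth signals through mTORC1 raise ATF4 as well. Its targets make, import and charge amino acids. An aminoacyl-tRNA synthetase joins 1 amino acid to its tRNA, so the family supplies every ribosome, and cells that turn into antibody-secreting plasmablasts make protein at a high rate.

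The libraries held 23026619 to 60585587 counts in total (median 37839944). Levels are given as RPKM, read counts scaled by exon length and library size, computed from the counts with TMM-scaled library sizes, and paired values are replicates 1 and 2. Markers were checked against the labels. The B cell gene Cd79a was at 2969 and 2692 CPM (counts scaled by library size) in naive cells and at 775 and 699 in plasmablasts. It was lower still at 10 h (620 and 604.5). A list of 5 plasmablast genes summed to 389 and 362 CPM in naive cells and to 16910 and 16400 in plasmablasts. Their sum was 2684 and 2092 CPM at 3 h, where Irf4 alone had 2588 and 1952, and 2191 and 2536 in expanded cells. Cd22, on which the day 4 cells were sorted, was at 418 and 393 CPM in expanded cells and at 1.36 and 1.14 in plasmablasts. Cd69, on which the undivided cells were sorted, peaked at 3 h (340.0 and 343 CPM) and was lower by 10 h (49.6 and 54.0) and 33 h (26.2 and 22.9), the last below naive cells (50.4 and 45.5). The summed markers of other cells were highest in the naive libraries, where 6 myeloid genes summed to 274 and 120.5 CPM, against 0.217 to 37.4 later, 4 erythroid genes to 125 and 90.0 CPM, against 0.347 to 1.45 later, and 6 T cell genes to 62.6 and 66.7 CPM, against 9.06 to 38.3 later. Lyz2 led the myeloid sum (131 and 54.9 CPM in naive cells), whereas Itgam was higher in expanded cells (24.3 and 21.8) than in naive cells (8.74 and 5.08). Lck made up nearly all of the naive T cell sum (59.8 and 64.1 CPM), and each other T cell gene was at 1.2 CPM or less there. Cd3g was higher in plasmablasts (1.02 and 0.683 CPM) than in naive cells (0.391 and 0.401). Of these lists, the later stages had 2 or 3 of the 6 myeloid genes at 0 in both libraries and the naive stage had none, and their part in the differences from naive cells was not tested.

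The replicates at 3 h stood apart from each other in these genes, and this touches every comparison that uses them. Replicate 2 had the higher level for 35 of the 36 members, with a median log2 ratio of 0.48, whereas 49.2% of the 12750 genes tested were higher in it. The ratio exceeded 2-fold for 7 members (19.4%, against 4.20% of all tested genes). Trib3 had a log2 ratio of 3.63 and ranked 2 among the 12750 genes, Chac1 had 3.54 and ranked 4, and Sesn2 had 1.97 and ranked 71. Aldh18a1 (1.56), Asns (1.43), Aars (1.06) and Cars (1.01) made up the rest of the 7. Atf4 itself differed by 0.16, and Atf5 was the only member lower in replicate 2, by -0.72. The glycine transporter gene Slc6a9, which is no member but stands on a list of other ATF4-linked genes, ranked first with a single count in replicate 1 and 79 in replicate 2. Mitochondrial genes took 5.68% and 8.47% of the counts and the total counts were 23026619 and 37947217, and the part of these in the split was not tested. In the other stages replicate 2 was higher as well for 27 of the members in naive cells, 23 at 10 h, 33 at 33 h, 27 in expanded cells and 34 in plasmablasts, where 46.9% to 55.1% of all genes were, but the median log2 ratios of the members were smaller, from 0.04 to 0.25, and beyond 2-fold were 2 members in naive cells and none later.

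**Figure D1:**
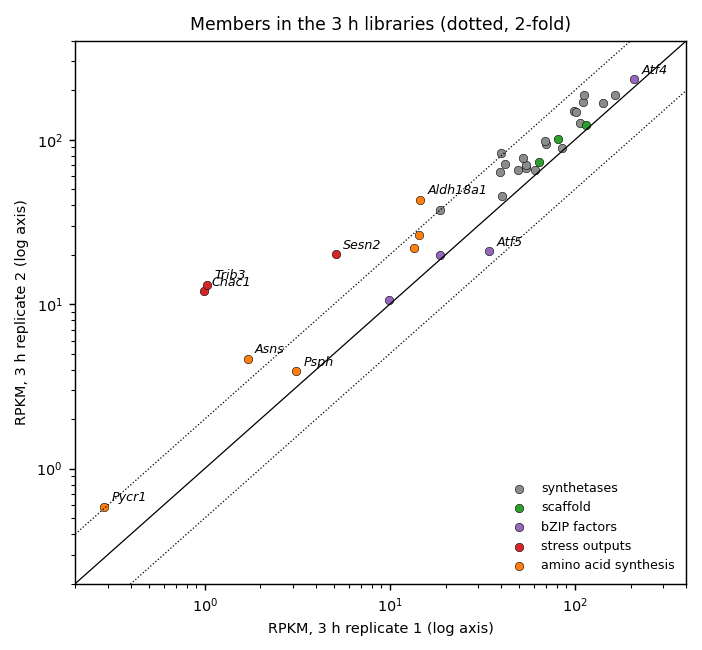
RPKM of the 36 members in 3 h replicate 1 (horizontal, log axis) against 3 h replicate 2 (vertical, log axis), coloured by role, with the line of equality and dotted lines at 2-fold. All points except Atf5 lie above equality, and Trib3, Chac1 and Sesn2 lie furthest from it.

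Consecutive stages were compared with edgeR's glmTreat against a fold change of 1.5, with Benjamini-Hochberg adjusted p under 0.05 over all genes as the call. In bulk RNA fewer cells of a type and less RNA per cell cannot be told apart. From naive to 3 h, 23 members rose and 3 fell, where 21.0% of all tested genes rose and 24.3% fell, and the median log2 fold change of the members was 1.19 against -0.03 for all genes. Without 3 h replicate 1 the members called were 25 up and 1 down, and without 3 h replicate 2 they were 18 up and 3 down. From 3 to 10 h, 6 members rose and 1 fell (17.4% and 13.4% of all genes), although 20 rose once 3 h replicate 2 was left out. From 10 to 33 h the 36 members gave 4 falls (4.45% of all genes) and 0 rises (10.1%), a 0 that stood at 0 with an unadjusted p under 0.05, at 0 with DESeq2's Wald test and at 3 with the F-test that has no fold threshold (23.2% of all genes).

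From 33 h to expanded cells 1 member rose (6.94%) and 0 fell (3.66%), with 0 falls also at an unadjusted p under 0.05 or with DESeq2's Wald test, and 3 with the F-test (21.2%). The count of rises was 3 when either 3 h library was left out and 0 without 33 h replicate 1. From expanded cells to plasmablasts 3 members rose (13.9%) and 1 fell (12.2%). Set directly against naive cells, plasmablasts had 27 members higher (26.6% of all genes) and 0 lower (23.4%), 0 also with an unadjusted p under 0.05, with DESeq2's Wald test and with the F-test (35.9%). Over the 6 stages together, all 36 members differed by the F-test, where 96.7% of all tested genes did. Consecutive comparisons share the libraries of the stage between them, and their values are given side by side.

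**Figure D2:**
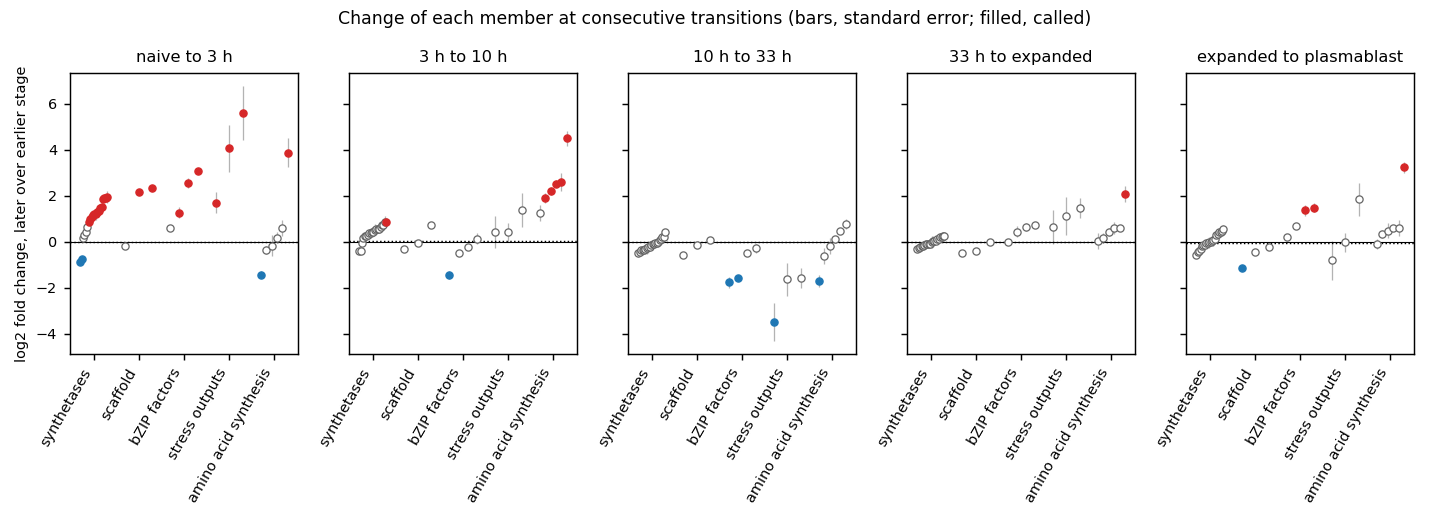
Log2 fold change of each member at the 5 consecutive transitions, later over earlier stage, grouped by role. Bars are standard errors, red and blue points are members called up and down by glmTreat, open points are not called, and the dotted line is the median of all tested genes. The first panel holds 23 called rises and the third none.

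Atf4 (chr15:80255184-80257545, GRCm38) had 2 waves with a trough at 33 h. Its level was 27.2 and 25.1 RPKM in naive cells, then 209 and 233 (3 h), 140.4 and 170 (10 h), 47.1 and 56.5 (33 h), 82.5 and 90.5 in expanded cells, and 146 and 131 in plasmablasts. Replicates of neighbouring stages did not overlap at any step. The rise to 3 h was a log2 fold change of 3.08 ± 0.13 (SE, n = 2 per stage, adjusted p = 1.3e-09 by glmTreat). Between 3 and 10 h the log2 fold change was -0.51 ± 0.12, which did not pass against 1.5-fold (adjusted p = 0.78), and from 10 to 33 h Atf4 fell by 1.58 ± 0.12 on the log2 scale (adjusted p = 6.3e-06). The log2 fold change from 33 h to expanded cells was 0.74 ± 0.12 (adjusted p = 0.21) and from there to plasmablasts 0.68 ± 0.12 (adjusted p = 0.24). Neither of these was called, although plasmablasts stood 2.40 ± 0.12 above naive cells on the log2 scale (adjusted p = 6.7e-09). The F-test with no fold threshold gave adjusted p = 0.002 from 3 to 10 h, 0.00036 from 33 h to expanded cells and 0.00028 from there to plasmablasts. In the order of levels, naive cells were lowest, then 33 h, expanded cells, plasmablasts, 10 h and 3 h, and of the neighbours in this order only plasmablasts (131 to 146 RPKM) and 10 h (140.4 to 170) overlapped.

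Atf5, a stress-responsive bZIP factor close to ATF4 in sequence, was at 4.86 and 4.46 RPKM in naive cells, then 34.4 and 21.0 (3 h), 9.07 and 11.2 (10 h), 8.55 and 7.90 (33 h), 11.9 and 13.7 in expanded cells, and 34.3 and 36.8 in plasmablasts. It was lowest in naive cells and highest at 3 h and in plasmablasts. The log2 fold change was 2.56 ± 0.20 from naive to 3 h (adjusted p = 9.9e-07), -1.45 ± 0.19 from 3 to 10 h (adjusted p = 0.00054), and 1.47 ± 0.19 from expanded cells to plasmablasts (adjusted p = 0.00045). Plasmablasts were 2.93 ± 0.21 above naive cells (adjusted p = 1.5e-07). Atf5 was the only member that fell from 3 to 10 h. The span of Atf5 overlaps that of Nup62 by 571 bases, and reads in such a stretch cannot be given to either gene without strand. Longer overlaps were those of Aars with Ddx19b (3974 bases) and of Farsb with Sgpp2 (2332). The highest counts of these partners were 3274 and 587, against 17694 for Nup62.

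Cebpb encodes a C/EBP factor that can pair with ATF4. Its level was 4.93 and 3.56 RPKM in naive cells, then 9.90 and 10.6 (3 h), 10.9 and 11.7 (10 h), 2.51 and 4.25 (33 h), 3.63 and 5.41 in expanded cells, and 11.6 in both plasmablast libraries. It rose to 3 h by 1.26 ± 0.24 on the log2 scale (adjusted p = 0.0054), fell by 1.76 ± 0.24 from 10 to 33 h (adjusted p = 0.00077) and rose from expanded cells to plasmablasts by 1.36 ± 0.24 (adjusted p = 0.0043). The call in plasmablasts was lost without expanded replicate 1 (1.09, adjusted p = 0.063), and that at 3 h without naive replicate 2 (1.06, adjusted p = 0.051). Plasmablasts exceeded naive cells by 1.44 ± 0.24 on the log2 scale (adjusted p = 0.0013). Cebpg, another C/EBP partner of ATF4, was called at no transition and ranged only from 11.4 to 19.9 RPKM, with its highest values, 18.8 and 19.9, at 3 h.

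The 3 stress outputs are genes that act on the cell in which ATF4 is active. Chac1 encodes an enzyme that degrades glutathione. It was at 0.151 and 0.124 RPKM in naive cells, then 0.9949 and 12.0 (3 h), 7.78 and 10.3 (10 h), 2.90 and 2.87 (33 h), 4.39 and 4.69 in expanded cells, and 12.8 and 20.01 in plasmablasts. The naive libraries were the lowest, and the 3 h libraries lay on either side of the 10 h values. Chac1 rose to 3 h by 5.59 ± 1.19 on the log2 scale (adjusted p = 0.0043), the largest value of any member there, though 2.79 without 3 h replicate 2 (adjusted p = 0.0021), when Atf4 had 2.97. It was 6.86 ± 1.14 higher in plasmablasts than in naive cells (adjusted p = 0.00082).

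Trib3, a pseudokinase that binds ATF4 and dampens it, was at 0.288 and 0.624 RPKM in naive cells, then 1.03 and 13.1 (3 h), 17.4 and 21.1 (10 h), 1.65 and 1.79 (33 h), 3.56 and 4.00 in expanded cells, and 2.02 and 2.27 in plasmablasts. Its peak lay at 10 h and it was low again in plasmablasts, where Atf4 and Chac1 were high. Trib3 rose to 3 h by 4.06 ± 1.02 on the log2 scale (adjusted p = 0.013) and fell from 10 to 33 h by 3.49 ± 0.83 (adjusted p = 0.029). The rise was 1.21 without 3 h replicate 2 (adjusted p = 0.051) and 3.56 without naive replicate 1 (adjusted p = 0.059), and the fall lost its call in each of the 4 fits that left out a 10 h or 33 h library, with values from -3.61 to -3.34. Plasmablasts against naive cells gave 2.29 ± 1.11, which was not called (adjusted p = 0.15).

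Sesn2, whose product senses leucine and restrains mTORC1, was at 3.86 and 4.08 RPKM in naive cells, then 5.12 and 20.1 (3 h), 17.2 and 17.1 (10 h), 5.33 and 6.00 (33 h), 14.8 and 16.2 in expanded cells, and 14.2 and 16.2 in plasmablasts. The called rise to 3 h was 1.70 ± 0.46 on the log2 scale (adjusted p = 0.022), and 0.34 without 3 h replicate 2 (adjusted p = 1). The call was also lost with DESeq2's Wald test (adjusted p = 0.12), with only the 4 libraries compared (0.066) and without naive replicate 1 (0.057). In plasmablasts Sesn2 was 1.94 ± 0.46 above naive cells (adjusted p = 0.0089). For each of the 3 stress outputs both 33 h libraries lay below both 10 h libraries, as for 38.8% of all genes, but among the 3 only the fall of Trib3 passed glmTreat and no rise from 33 h to expanded cells did. From 10 to 33 h Sesn2 had -1.60 ± 0.43 (adjusted p = 0.067) and Chac1 -1.64 ± 0.72 (adjusted p = 0.31).

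**Figure D3:**
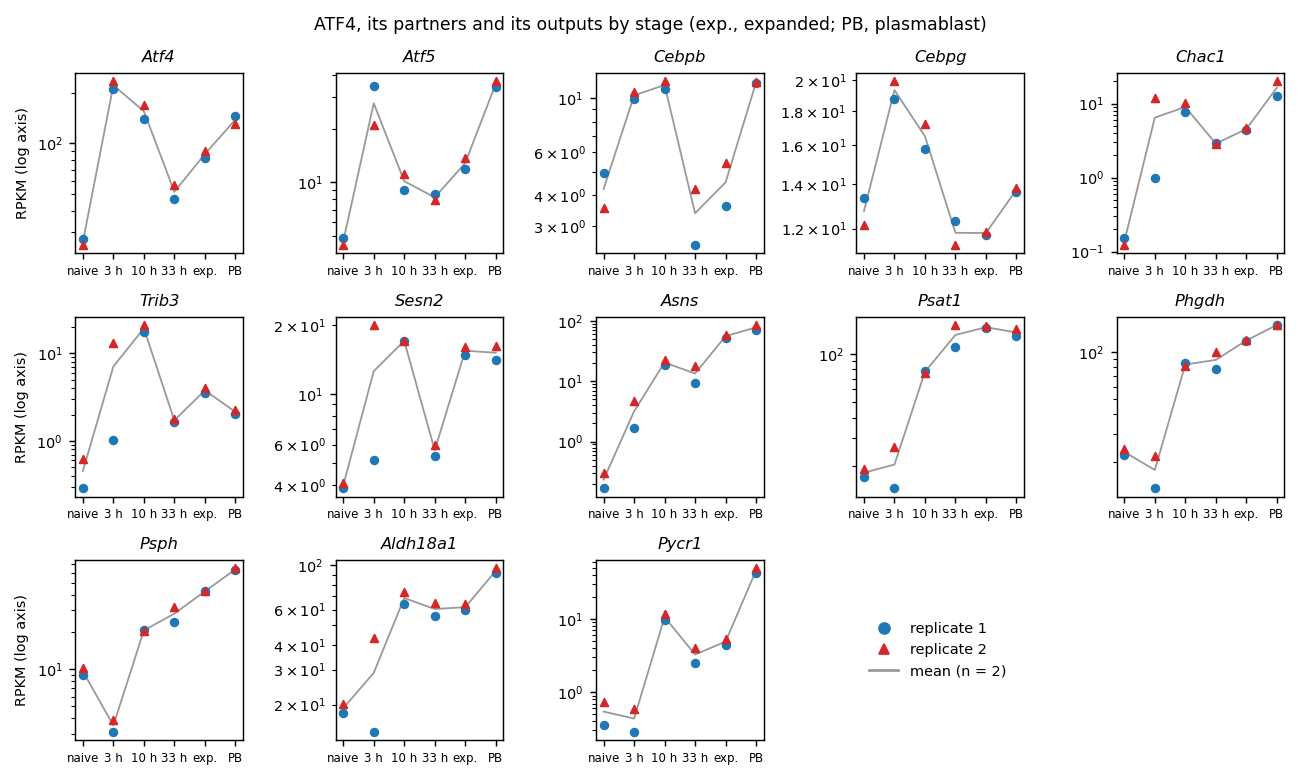
RPKM (log axes, scaled for each gene) of Atf4, its bZIP partners, the stress outputs and the amino acid synthesis enzymes in the 2 libraries of each stage, with a line through the means. Atf4, Cebpb, Chac1, Trib3 and Sesn2 dip at 33 h, and the amino acid synthesis genes are higher in both 10 h libraries than in either 3 h library, as for 40.8% of all genes.

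The binding element of ATF4 with a C/EBP partner has the core TGATGNAA, where N is any base. It was searched on both strands (TTNCATCA on the other) in RefSeq promoter windows of GRCm38.p6, from 250 bases before a gene's start to 50 after it. A window was matched for 29 members (all but Cars, Hars, Lars, Nars, Rars, Vars and Wars), and 9 of them (31.0%) held the core: Aars (with 2 matches), Asns, Chac1, Gars, Iars, Pycr1, Tars, Trib3 and Yars. Of 9919 tested genes with a window 292 (2.94%) held it, as did 3.97% of all 32851 windows. The list was put together around ATF4, so a higher share among its members is no independent result. The 9 members with the core had a median log2 ratio of 3 h replicate 2 over replicate 1 of 0.98 (from 0.43 to 3.63), and the 20 with a window and no match had 0.31 (from -0.72 to 1.97). From naive to 3 h, 8 of the 9 rose and none fell, beside 10 up and 2 down of the 20 (21.0% and 24.3% of all genes), with medians of 1.88 and 0.74, and the difference was not tested. The windows of the 6 matching members with the largest change at a consecutive transition are shown, read 5′ to 3′ on the strand of the gene, in lower case with the match in capitals. For Chac1 (chr2:119350992-119351241, plus strand), Pycr1 (chr11:120643749-120643998, minus), Asns (chr6:7693210-7693459, minus) and Tars (chr15:11399659-11399908, minus) the 250 bases before the start are given, and for Trib3 (chr2:152344028-152344057, minus) and Iars (chr13:49682126-49682155, plus), where the match lies just past the start, 30 bases around it.
Chac1: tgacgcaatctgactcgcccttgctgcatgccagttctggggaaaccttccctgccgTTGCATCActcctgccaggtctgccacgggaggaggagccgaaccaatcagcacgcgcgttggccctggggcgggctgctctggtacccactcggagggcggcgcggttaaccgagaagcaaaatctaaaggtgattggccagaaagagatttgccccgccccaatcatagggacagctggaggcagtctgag
Pycr1: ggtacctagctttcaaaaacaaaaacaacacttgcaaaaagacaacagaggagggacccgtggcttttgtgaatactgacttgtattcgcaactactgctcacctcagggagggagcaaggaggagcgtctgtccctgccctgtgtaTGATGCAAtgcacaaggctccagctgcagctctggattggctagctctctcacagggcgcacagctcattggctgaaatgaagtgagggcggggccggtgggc
Trib3: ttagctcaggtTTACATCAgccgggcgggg
Asns: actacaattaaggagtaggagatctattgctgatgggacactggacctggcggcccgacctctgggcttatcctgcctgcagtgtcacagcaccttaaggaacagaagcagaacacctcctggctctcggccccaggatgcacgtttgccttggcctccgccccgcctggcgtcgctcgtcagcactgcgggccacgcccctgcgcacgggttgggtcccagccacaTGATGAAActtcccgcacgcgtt
Tars: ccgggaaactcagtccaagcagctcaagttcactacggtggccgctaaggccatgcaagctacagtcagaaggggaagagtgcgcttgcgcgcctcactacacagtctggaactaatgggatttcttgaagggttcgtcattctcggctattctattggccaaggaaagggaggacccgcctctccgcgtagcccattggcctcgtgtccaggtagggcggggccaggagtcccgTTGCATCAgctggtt
Iars: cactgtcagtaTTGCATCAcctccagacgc
The match begins 193 bases before the start in Chac1, 103 in Pycr1, 23 in Asns and 15 in Tars. A match is a run of letters in this window and was not tested as a binding site.

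Most calls among the 6 enzymes of amino acid synthesis came after 3 h. At 3 h only Asns had risen and Psph had fallen, from 3 to 10 h 5 of the 6 rose (17.4% of all genes), and in plasmablasts all 6 were above naive cells (26.6%). Asns, asparagine synthetase (chr6:7675165-7693209), was at 0.169 and 0.302 RPKM in naive cells, then 1.71 and 4.65 (3 h), 18.7 and 22.3 (10 h), 9.27 and 17.6 (33 h), 53.0 and 58.7 in expanded cells, and 70.6 and 85.7 in plasmablasts. No library of a stage overlapped with one of the next, and the order was the order of the stages except for 33 h. Asns rose by 3.87 ± 0.64 on the log2 scale to 3 h (adjusted p = 0.00071), by 2.61 ± 0.39 to 10 h (adjusted p = 0.0008), and by 2.07 ± 0.35 from 33 h to expanded cells (adjusted p = 0.006), where it was the only member called. The value to 3 h was 2.88 without 3 h replicate 2 (adjusted p = 0.044). Without 33 h replicate 1 the value from 33 h to expanded cells was 1.67 (adjusted p = 0.053). Plasmablasts exceeded naive cells by 8.42 ± 0.55 (adjusted p = 3.5e-07), the largest of the 36.

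Pycr1, which makes proline in mitochondria (chr11:120638998-120643748), was at 0.355 and 0.732 RPKM in naive cells, then 0.287 and 0.586 (3 h), 9.62 and 11.5 (10 h), 2.53 and 4.00 (33 h), 4.44 and 5.34 in expanded cells, and 42.9 and 48.8 in plasmablasts. The naive and 3 h libraries overlapped and every later library was higher. From 3 to 10 h it rose by 4.50 ± 0.34 on the log2 scale (adjusted p = 1.6e-06), it fell by 1.71 ± 0.25 to 33 h (adjusted p = 0.002, and 0.068 with DESeq2's Wald test), and it rose by 3.23 ± 0.26 from expanded cells to plasmablasts (adjusted p = 2.9e-06). Against naive cells, plasmablasts were 6.44 ± 0.33 higher (adjusted p = 9.8e-09). Aldh18a1, which starts proline synthesis from glutamate, stood at 18.3 and 20.2 RPKM in naive cells, then 14.6 and 43.2 (3 h), 64.1 and 73.2 (10 h), between 55.9 and 65.0 in the libraries of 33 h and of expanded cells, and 91.2 and 96.6 in plasmablasts. The 3 h values straddled the naive ones, and the step to 10 h was 1.24 ± 0.36 (adjusted p = 0.06), short of a call.

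The serine pathway is formed by Phgdh, Psat1 and Psph, which act in this order. Phgdh was at 22.1 and 24.1 RPKM in naive cells, then 13.5 and 21.9 (3 h), 85.4 and 81.2 (10 h), 78.2 and 99.9 (33 h), 118 and 119 in expanded cells, and 149 in both plasmablast libraries. Psat1 followed with 17.1 and 19.1, 14.5 and 26.3, 77.9 and 76.3, 111 and 151, 144 and 149, and 129.6 and 142 RPKM over the same stages. Psph had its lowest stage at 3 h, with 8.98 and 10.2, 3.12 and 3.91, 20.9 and 20.2, 24.1 and 32.0, 42.4 and 42.5, and 62.6 and 64.9 RPKM.

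Psph fell from naive to 3 h by 1.43 ± 0.16 on the log2 scale (adjusted p = 6.6e-05) and then rose by 2.53 ± 0.15 to 10 h (adjusted p = 2.1e-07). Phgdh rose by 2.22 ± 0.18 (adjusted p = 5.1e-06) and Psat1 by 1.91 ± 0.23 (adjusted p = 0.0002) in the same interval, neither having been called at 3 h (-0.37 ± 0.18 and 0.18 ± 0.23). After 10 h glmTreat called none of the 3 at a consecutive transition, while the F-test had Psat1 and Psph higher at 33 h than at 10 h (adjusted p = 0.014 for both), and Psph also higher in expanded cells than at 33 h (adjusted p = 0.003) and in plasmablasts than in expanded cells (adjusted p = 0.0018). In plasmablasts the 3 genes were above naive cells by 2.69, 2.91 and 2.73 on the log2 scale in the order of the pathway, with 2.91 ± 0.23 for Psat1 (adjusted p = 1.4e-06). The span of Psph overlaps that of Cct6a by 88 bases.

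Of the 20 cytosolic synthetase genes 14 rose from naive to 3 h, 2 fell (Qars and Vars) and 4 were not called, where 21.0% of all genes rose and 24.3% fell, with a median log2 fold change of 1.18. Their reads summed to 2827 and 2863 CPM in naive cells, 3476 and 4970 (3 h), 6987 and 7278 (10 h), 5847 and 6791 (33 h), 6033 and 6096 in expanded cells, and 4879 and 5070 in plasmablasts. On this scale the sum was lowest in naive cells and highest at 10 h. Summed as RPKM, with TMM scaling, it was 1006 and 1051 in naive cells, again the lowest, but 2252 and 2330 at 10 h overlapped with 1996 and 2304 at 33 h and with 2152 and 2284 in plasmablasts. The median over the 20 genes, per length, went from 39.4 and 42.1 RPKM in naive cells to 64.7 and 86.2 (3 h) and lay between 90.3 and 101 in all later libraries.

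The largest rises to 3 h among them were those of Cars (log2 fold change 1.94), Rars (1.92), Tars (1.89), Iars (1.88), Yars (1.5) and Nars (1.45). Gars, Eprs, Aars, Mars, Hars, Lars, Kars and Farsa also rose, by 0.86 to 1.35. The order rests in part on 3 h replicate 2: without it Rars had 1.77, Iars 1.62, Tars 1.53 and Cars 1.32, and Yars (1.03) and Nars (1.01) stood below Eprs (1.16) and Hars (1.11), all of them still called. Of the 14, Aars (0.54), Lars (0.64) and Farsa (0.62) were not called without 3 h replicate 2 or with library size alone as the scaling, and Farsa was also lost with DESeq2's Wald test, with only the 4 libraries compared and without naive replicate 1. Dars, Farsb, Wars and Sars were not called and had values from 0.14 to 0.63. Cars, the cysteine enzyme, was at 7.16 and 7.57 RPKM in naive cells, then 18.7 and 37.6 (3 h) and 30.1 to 43.0 in all later libraries. Rars, the arginine enzyme, was at 40.0 and 41.5 RPKM in naive cells and at its highest, 142 and 166, at 3 h. The later stages had 117 and 113, 101 and 123, 94.6 and 92.6, and, in plasmablasts, 68.8 and 74.3 RPKM, with no step after 3 h called.

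Qars and Vars went the other way at 3 h. Qars, the glutamine enzyme, was at 70.0 and 74.3 RPKM in naive cells, then 40.4 and 45.4 (3 h), 72.1 and 69.7 (10 h), 94.4 and 97.4 (33 h), 104.0 and 103 in expanded cells, and 123 and 128 in plasmablasts. Its fall to 3 h was by 0.75 ± 0.08 on the log2 scale (adjusted p = 0.021) and was not called without 3 h replicate 1 (-0.66, adjusted p = 0.13), without naive replicate 2 or with DESeq2's Wald test. Vars, the valine enzyme and the synthetase with the highest level in naive cells, was at 228 and 232 RPKM there, 102 and 148 (3 h), 232 and 227 (10 h), and 233 to 303 in all later libraries. It fell by 0.88 ± 0.13 (adjusted p = 0.012) and rose again by 0.88 ± 0.13 from 3 to 10 h (adjusted p = 0.019), the only synthetase called in that interval. Both of its calls were lost without 3 h replicate 1 (-0.63 and 0.63) or with DESeq2's Wald test, and the second also with only the 4 libraries compared or without 10 h replicate 1.

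After 10 h glmTreat called no synthetase gene at any consecutive transition, where the F-test with no fold threshold called 1 up and 4 down from 10 to 33 h (23.2% and 22.2% of all genes), 0 up and 1 down to expanded cells (18.5% and 21.2%), and 5 up and 4 down to plasmablasts (27.2% and 29.7%). From 10 to 33 h, 15 of the 20 had a negative log2 fold change, as did 51.8% of all genes, and the values ran from -0.51 for Lars to 0.44 for Qars. Expanded cells against 33 h gave values from -0.32 to 0.24, and plasmablasts against expanded cells from -0.58 (Farsb) to 0.54 (Nars). Set against naive cells, plasmablasts had 15 of the 20 higher (26.6% of all genes) and none lower (23.4%), led by Yars (2.55), Cars (2.29) and Nars (2.21). Dars (0.70), Farsa (0.51), Farsb (0.41), Vars (0.37) and Wars (-0.16) were not called.

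The stage with the highest mean differed between members of the family, and differences between members were not tested. Replicates of the highest stage could overlap with those of another, as for Gars in expanded cells (185.9 and 187.7 RPKM) and at 10 h (183.1 and 189.5). Yars, the tyrosine enzyme, was at 20.4 and 19.9 RPKM in naive cells, then 42.0 and 71.6 (3 h), 69.8 and 77.5 (10 h), 63.6 and 82.3 (33 h), 82.5 and 90.1 in expanded cells, and 114 and 122 in plasmablasts, its highest stage. Nars, Qars, Sars and Vars were also highest in plasmablasts, with 240.2 and 264 RPKM for Nars and 113 and 115 for Sars. Aars, Cars, Dars, Eprs, Farsa, Iars, Lars, Mars and Wars had their highest mean at 10 h, Farsb and Kars at 33 h, Gars and Hars in expanded cells, and Rars and Tars at 3 h. Wars, the tryptophan enzyme, was the flattest, between 45.9 and 71.2 RPKM in all libraries. Kars stayed between 165 and 232 RPKM after activation, against 84.0 and 94.3 before it. Naive cells were the lowest stage for 17 of the 20, as for 22.6% of all genes.

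Class I and class II enzymes, which have unlike catalytic folds, gave 6 of 9 and 7 of 10 genes up to 3 h (21.0% of all genes), with medians of 1.19 and 1.08. Both genes that fell belong to class I. Eprs carries an enzyme of each class in a single chain and rose by 1.31. Of the 8 enzymes held in the multi-synthetase complex 6 rose and 1 fell, and of the 12 free enzymes 8 rose and 1 fell (24.3% of all genes fell). Differences between these groups were not tested.

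**Figure D4:**
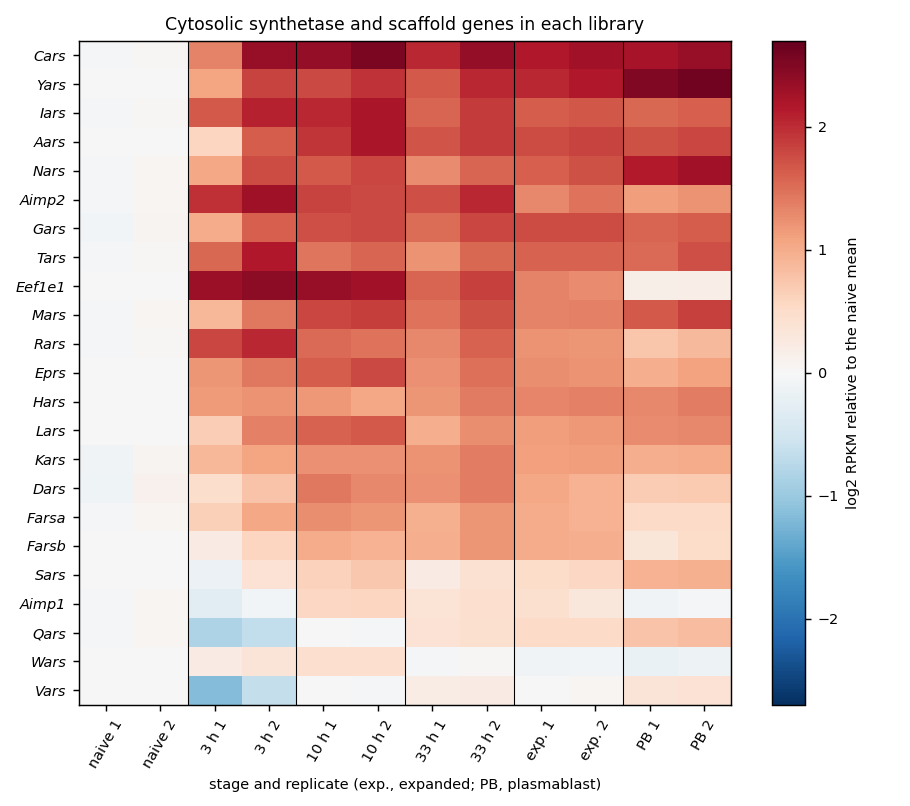
Log2 RPKM of the 20 synthetase and 3 scaffold genes in each of the 12 libraries relative to the mean of the naive libraries, ordered by the mean over the stages after naive. Red is higher than naive cells and blue lower. Most genes turn red at 3 h, more so in replicate 2. Qars, Vars and Aimp1 lie below naive cells in both 3 h libraries, and Sars does in replicate 1.

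The scaffold genes of the complex parted from each other. Eef1e1 was at 23.4 and 23.2 RPKM in naive cells, then 115 and 123 (3 h), 118 and 113 (10 h), 68.7 and 83.9 (33 h), 59.1 and 56.0 in expanded cells, and 26.1 and 26.4 in plasmablasts, close to where it began. It rose to 3 h by 2.36 ± 0.11 on the log2 scale (adjusted p = 4.1e-09) and fell from expanded cells to plasmablasts by 1.13 ± 0.10 (adjusted p = 0.00014), the only member that fell there. Aimp2 was at 19.8 and 21.3 RPKM in naive cells and 81.1 and 101 (3 h), a rise of 2.15 ± 0.13 (adjusted p = 7.4e-08), and was at 73.4 and 71.2 (10 h) and 44.8 and 47.5 RPKM in plasmablasts, there 1.17 ± 0.13 above naive cells (adjusted p = 0.00017). Aimp1 was called at no transition and stayed between 63.6 and 115 RPKM.

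Over all 36 members, the stage with the highest mean was plasmablasts for 13 (36.1%) and 10 h for 12 (33.3%), where 23.3% and 11.1% of all tested genes had theirs. Then came 3 h with 6, expanded cells with 3 and 33 h with 2, and no member was highest in naive cells, where 22.6% of all genes were. The lowest stage was naive for 27 members (75.0%, against 22.6% of all genes). Plasmablasts were the highest stage of 5 of the 6 amino acid synthesis genes and of 5 of the 20 synthetases, and 10 h that of 9 synthetases.

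The rest of the pathway was followed through lists of named genes. Of 14 genes of eIF2, its kinases, its exchange factor and its phosphatase, 7 rose and 2 fell to 3 h (21.0% and 24.3% of all genes). Ppp1r15a, the inducible phosphatase subunit that reverses the eIF2 mark, rose most, from 8.32 and 6.63 to 118 and 93.6 RPKM, by 3.82 ± 0.20 on the log2 scale (adjusted p = 1.2e-08), and fell by 2.42 ± 0.18 to 10 h (adjusted p = 1.8e-06). Eif2b3, a subunit of the exchange factor that reloads eIF2, rose to 3 h by 2.35 ± 0.18 (adjusted p = 7.1e-07). Both falls to 3 h were of kinase genes, Eif2ak2 (PKR) and Eif2ak3 (PERK), named here after their values were seen. Eif2ak3 was at 31.5 and 30.8 RPKM in naive cells, then 10.6 and 10.0 (3 h), 29.4 and 27.3 in expanded cells, and 46.4 and 43.5 in plasmablasts. From 3 to 10 h Eif2ak2 rose by 2.02 ± 0.23 (adjusted p = 8.5e-05). The Eif2ak4 gene, for the amino acid sensor GCN2, was lowest in plasmablasts (2.99 and 3.31 RPKM), 1.46 ± 0.11 below naive cells (adjusted p = 1.1e-06).

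Of 22 other genes linked to ATF4, 21 were tested (Nupr1 was not), of which 7 rose and 2 fell to 3 h (21.0% and 24.3% of all genes) and 16 were higher and 2 lower in plasmablasts than in naive cells (26.6% and 23.4%). The transporter gene Slc7a5 rose to 3 h by 3.73 ± 0.17 on the log2 scale (adjusted p = 6.4e-09) and Atf3 by 3.55 ± 0.28 (adjusted p = 4.2e-07). Slc3a2, whose product pairs with that of Slc7a5, was called at no transition before the last and rose from 75.9 and 82.9 RPKM in expanded cells to 495 and 552 in plasmablasts, by 2.72 ± 0.13 (adjusted p = 1.7e-08). Between 10 and 33 h 6 of the 21 fell (4.45% of all genes) and 0 rose (10.1%) by glmTreat. The F-test with no fold threshold had 2 up and 9 down (23.2% and 22.2% of all genes). Ddit3, the stress gene for CHOP, fell by 2.64 ± 0.22 (adjusted p = 3.3e-06), in the interval in which Atf4, Trib3, Cebpb and Pycr1 fell. The span of Ddit3 overlaps that of the member Mars by 71 bases, with highest counts of 834 for Ddit3 and 18320 for Mars.

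The 17 mitochondrial synthetase genes, which charge tRNA inside the organelle, were set beside the cytosolic ones. To 3 h 1 of them rose and 4 fell (21.0% and 24.3% of all genes), with a median of -0.04 against 1.18 for the cytosolic genes. From 3 to 10 h 7 rose (17.4% of all genes) and none fell by glmTreat (13 up and 1 down by the F-test, 32.1% and 30.2% of all genes), beside 1 rise among the 20 cytosolic genes (12 up and 1 down by the F-test). In plasmablasts against naive cells 1 was higher and 4 lower (26.6% and 23.4% of all genes), beside 15 and none. Vars2 fell to 3 h by 1.45 ± 0.24 (adjusted p = 0.0018) and Yars2 rose by 1.54 ± 0.13 (adjusted p = 3.6e-06). The difference between the lists was not tested, and Lars2, singled out because its 3 h replicates stood at 669 and 74.2 RPKM, was not called at any transition.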

How the data were processed

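RNA-Seq libraries were made by the authors with a TruSeq kit, read as 81-base pairs on a NextSeq 500, aligned to mm10 with Rsubread (1.28.0 per the study's methods) and counted with featureCounts on its inbuilt Entrez genes. The deposited values are raw counts beside exon lengths per gene, and no column of single samples was left unused. Total counts were 23026619 to 60585587, and a count of 0 allows up to 3 counts.

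Of 27179 IDs, 25275 matched a RefSeq table of GRCm38.p6. Unmatched IDs (1.41% to 2.08% of the counts), mitochondrial genes (4.94% to 11.5%), X and Y chromosome genes, ribosomal RNA genes and variable immunoglobulin segments were removed, after the study's methods, which left 23700 genes. edgeR's filterByExpr kept 12750. With R 4.3.3, edgeR 4.0.16 and limma 3.58.1, libraries were scaled by TMM, all 12 entered a one-way layout in robust mode, and glmTreat tested each pair of stages for a change beyond 1.5-fold, adjusted with the Benjamini-Hochberg method over all genes tested and called at 0.05. Log2 fold changes have standard errors from the quasi-likelihood fit. RPKM and CPM were computed from the counts. The step was tested on simulated data, and the outcome is not reported here.

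The members and the lists were chosen with earlier results of these data known. Full statistics are given at each comparison for the called members with the largest changes (5 that rose, 5 that fell), for called members of role groups of 5 or fewer, for Atf4 throughout, and for up to 2 called genes of each other list per comparison.

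Alternatives were DESeq2 1.42.0 size factors or library size alone, DESeq2's Wald test, no filter or at least 10 counts in every library, fits without robust mode or with the newer edgeR method, a replicate block, only the 4 libraries compared, the removed genes kept, the F-test with no fold threshold, and leaving out each library. Hi-C data, proteins and promoters without a RefSeq window were not analysed here, and a marker gene and a gene of a compared list are not reported here. Where the labels give replicates only as numbers, p-values measure the spread between these libraries.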

Additional observations from a re-analysis of the deposited data

How the results depend on the processing

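No member that was called changed direction under any alternative run. Counts of members called moved by over 1.5 times as follows. From naive to 3 h the 3 falls became 1 with DESeq2's Wald test. From 3 to 10 h the 6 rises became 14 with library size alone and 19 with the F-test, and the 1 fall 5 with the F-test. From 10 to 33 h the 0 rises became 1 with no filter on low counts and 3 with the F-test, and the 4 falls 11 with the F-test. From 33 h to expanded cells the 1 rise became 3 with no filter or with only the 4 libraries compared and 5 with the F-test, and the 0 falls 3 with the F-test. From expanded cells to plasmablasts the 3 rises became 10 with the F-test, and the 1 fall 3 with library size alone and 6 with the F-test. The F-test differs by its construction, with no fold threshold, and for the other settings the cause was not tested.

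Leaving out 1 library at a time gave 18 to 25 rises and 1 to 3 falls to 3 h, 5 to 20 rises and 1 fall to 10 h, 3 to 6 falls and 0 rises to 33 h, 0 to 3 rises and 0 falls to expanded cells, 2 to 4 rises and 1 fall to plasmablasts, and 26 to 28 rises and 0 falls from naive cells to plasmablasts. The 36 members that differed over the stages remained 36. The 18 and 25 rises to 3 h and the 20 rises to 10 h each came from leaving out a 3 h library. Over all genes, the F-test called 9052, 7942, 5798, 5053 and 7256 genes at the 5 transitions against 5774, 3932, 1855, 1352 and 3329, and from 33 h to expanded cells the count was 895 with DESeq2's Wald test, 712 with at least 10 counts in every library and 855 without 33 h replicate 1.

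Library size alone moved the median of all genes from -0.03 to -0.24 from naive to 3 h, from 0.02 to 0.35 from 3 to 10 h, from -0.05 to -0.38 from expanded cells to plasmablasts and from 0.02 to -0.26 from naive cells to plasmablasts. It gave the members medians of 0.99, 0.73, -0.29 and 1.31 there, against 1.19, 0.41, 0.05 and 1.59, so that the sign turned only from expanded cells to plasmablasts. Under the same scaling Kars, Qars, Rars and Sars lost their calls in plasmablasts against naive cells, and Aars, Farsa and Lars theirs from naive to 3 h. The call of Rars in plasmablasts was also lost with DESeq2's Wald test, without naive replicate 1 and without plasmablast replicate 2.

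The main fit did not pair libraries by their replicate number. Over all tested genes the correlations of deviations between stages ran from -0.14 to 0.08 over 15 pairs of stages, with 0 above 0.1. These values cannot show whether libraries of the same number share a mouse or a batch, and most members were higher in replicate 2 at every stage. With a replicate block 7 members rose from 3 to 10 h in place of 6 and 5 fell from 10 to 33 h in place of 4, and the other counts of members were as without it. The counts of Chac1 (28 and 572) and Trib3 (38 and 820) differed widely between the 3 h libraries. With 2 libraries a stage, their log2 fold changes to 3 h had standard errors of 1.19 and 1.02, and the cause was not tested.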

Other observations

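Genes that carry the carbon unit released from serine were a list of 5, of which 3 rose to 3 h (Shmt1, Shmt2 and Mthfd2) and none fell, where 21.0% and 24.3% of all genes did. From 3 to 10 h 2 rose (17.4% of all genes), Shmt2 by 1.63 ± 0.14 on the log2 scale (adjusted p = 9.1e-06) and Mthfd1 by 1.36 ± 0.17 (adjusted p = 0.00051). In plasmablasts 3 of the 5 fell from the level of expanded cells (12.2% of all genes), the cytosolic enzyme gene Mthfd1 from 79.6 and 79.7 to 31.9 and 31.9 RPKM (-1.32 ± 0.17, adjusted p = 0.00082) and the mitochondrial Mthfd1l from 48.3 and 48.2 to 19.8 and 19.9 RPKM (-1.28 ± 0.14, adjusted p = 0.00016), whereas the serine synthesis genes Phgdh, Psat1 and Psph were at 149 and 149, 129.6 and 142, and 62.6 and 64.9 RPKM there and were not called at that step. Of 5 translation elongation genes none was called to 3 h by edgeR's glmTreat (0 up and 0 down, with 0 up and 2 down by the F-test, 34.7% and 36.3% of all genes) and Eef1g alone rose to 10 h (17.4% of all genes), by 0.76 ± 0.07 (adjusted p = 0.013).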
